A study of Mus musculus with 8 samples.

Results

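Adventitial fibroblast genes are transcripts that mark the connective tissue cells of the outer coat of an artery, and 34 such genes were followed in the mouse aorta. The genes were listed by name, and each was read from the probe set annotated to that symbol alone with the highest mean over all arrays. Of the 34, 32 had such a probe set, among 18193 genes with one in the table. Ly6a had none, and Ly6c1 was matched only together with Ly6c2, so no array values are reported for either. Dpp4 had 4 probe sets, all below the cut-off on dim probe sets, and 31 genes were tested. The microarrays measured total RNA of the aorta of 4 month-old mice, 4 control and 4 mutant arrays, after deletion of the gene of serum response factor (SRF), a transcription factor of muscle and cytoskeletal genes. Controls were SRF-flex2neo littermates, and mutants were SRF-flex2neo -SM22CreERT2ki/+ mice, labelled as a knockout specific to smooth muscle. The Cre recombinase is driven by the smooth muscle gene SM22 (Tagln) and is switched on by tamoxifen, so fibroblasts are not its labelled target. Tamoxifen (1 mg on each of 3 days) was given to both groups alike, and tissue was taken 8 days later. Titles number 2 sets of 4 arrays, and each set holds 2 controls and 2 mutants. Arrays numbered 1 and 2 in each group belong to set 1, and those numbered 3 and 4 to set 2. No label says whether each array came from its own mouse, so p-values measure the spread between arrays, which may be technical.

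Adventitial fibroblasts build and maintain the collagen-rich outer layer in which the vessel's nerves, small vessels and resident immune cells lie. A subset that carries Pi16, Cd34, Ly6a and Dpp4 is found around vessels in many mouse tissues and is regarded as a progenitor-like fibroblast state. Its neighbours secrete matrix proteins, Wnt inhibitors and factors that act on endothelial and immune cells. Several of these genes are also expressed elsewhere: Cd34 and Il33 in endothelial cells, Lrp1 in smooth muscle and macrophages, and Gpx3 and Ebf2 in fat.

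Upstream sequence is shown for the genes whose 4 mutant arrays all lay on one side of the 4 control arrays, since these separate the groups most fully. Of these 5 genes, Pi16, Cd34, Ms4a4d and Sema3c had an entry in the RefSeq promoter table (build GRCm38.p6), and Scara5 is named only. Each sequence is the 250 bases before the start given in that table, on the + strand. The last 86 bases of the Pi16 window lie inside the gene as the RefSeq gene table places it, and the other 3 windows lie outside their genes. The windows are chr17:29318632-29318881 for Pi16, chr1:194938571-194938820 for Cd34, chr19:11536544-11536793 for Ms4a4d and chr5:17574566-17574815 for Sema3c. Capitals mark matches to E-boxes, CANNTG, the general motif of basic helix-loop-helix factors such as Tcf21.
Pi16: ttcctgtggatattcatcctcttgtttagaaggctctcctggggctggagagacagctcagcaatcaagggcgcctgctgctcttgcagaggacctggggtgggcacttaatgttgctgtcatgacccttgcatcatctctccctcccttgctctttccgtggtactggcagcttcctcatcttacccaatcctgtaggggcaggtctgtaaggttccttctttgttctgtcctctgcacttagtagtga
Cd34: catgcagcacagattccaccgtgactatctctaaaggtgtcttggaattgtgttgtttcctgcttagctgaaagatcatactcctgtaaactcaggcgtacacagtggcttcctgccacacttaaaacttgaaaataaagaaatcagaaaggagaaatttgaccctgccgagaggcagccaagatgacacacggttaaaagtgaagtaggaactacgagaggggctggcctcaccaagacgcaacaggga
Ms4a4d: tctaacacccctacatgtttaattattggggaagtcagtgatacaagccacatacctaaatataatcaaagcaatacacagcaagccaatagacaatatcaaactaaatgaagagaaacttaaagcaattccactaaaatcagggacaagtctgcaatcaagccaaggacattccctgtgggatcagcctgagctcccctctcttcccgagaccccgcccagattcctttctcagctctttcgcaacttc
Sema3c: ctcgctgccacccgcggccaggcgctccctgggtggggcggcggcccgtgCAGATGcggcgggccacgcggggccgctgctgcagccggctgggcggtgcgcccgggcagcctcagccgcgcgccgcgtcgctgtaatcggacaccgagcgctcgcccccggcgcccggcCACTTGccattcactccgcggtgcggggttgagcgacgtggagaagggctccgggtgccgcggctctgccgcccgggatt
There were 5 motifs searched on both strands. The CArG box, to which SRF binds, was found upstream of 0 of 25 genes of the list that had a window, and in 1.47% of all 32851 windows of that length. E-boxes were found for 14 of the 25 genes and in 66.2% of all windows, and of the 4 genes shown only Sema3c had one, at 2 places. The AP-1 motif TGANTCA was found for 3 of the 25 (6.75% of all windows), TATAAA for 5 (12.4%) and the EBF motif for 1, Dpp4 (0.779%). The 25 genes include Dpp4 and Ly6c1, which were not tested on the arrays. They had 28 windows, and a gene was counted where any of its windows matched, while the percentages are per window. The matched letters did not overlap in the sequences shown, and a match is a description of the sequence.

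The tissue label was checked against the smooth muscle markers, which were high in all arrays. Myh11, smooth muscle myosin, was at 14.69 in controls and 14.48 in mutants (means of 4 log2 values). The deleted gene, Srf, differed by -0.20 (SE 0.19), so the arrays give no clear check of the deletion, and the place of its probe sets relative to the deleted part was not given in the sources used here. Medians over all probe sets were 3.72 to 3.98 on the log2 scale. Mutant 2 had the highest nerve and fat transcripts and control 3 the highest heart muscle transcripts, and values without one or both are given beside several results.

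Most adventitial fibroblast genes were at higher levels in mutant than in control aorta, but no single gene passed the test. Of 31 tested, 26 (83.9%) were higher and 5 lower, and the median difference was 0.92 on the log2 scale, against -0.02 over the 12173 genes tested. Of the 31, 14 were at least 2-fold higher, which 2.69% of all probe sets tested were. Scara5, Fbln1, Abca8a and Ms4a4d had the highest differences, and Sema3c the lowest. With limma, 0 of 27023 probe sets (0%) reached an adjusted p under 0.05. Hence 0 of these genes did, and theirs ran from 0.375 to 0.988. At an unadjusted p under 0.05, 21 were higher and 1 lower, where 4.5% and 5.05% of all probe sets were (9.55% together). The 4 mutants all lay above the 4 controls for 4 genes and below them for 1, where 1.43% and 1.57% of probe sets did so. Since whole tissue was measured, more cells of a type and more RNA per cell cannot be told apart.

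**Figure D1:**
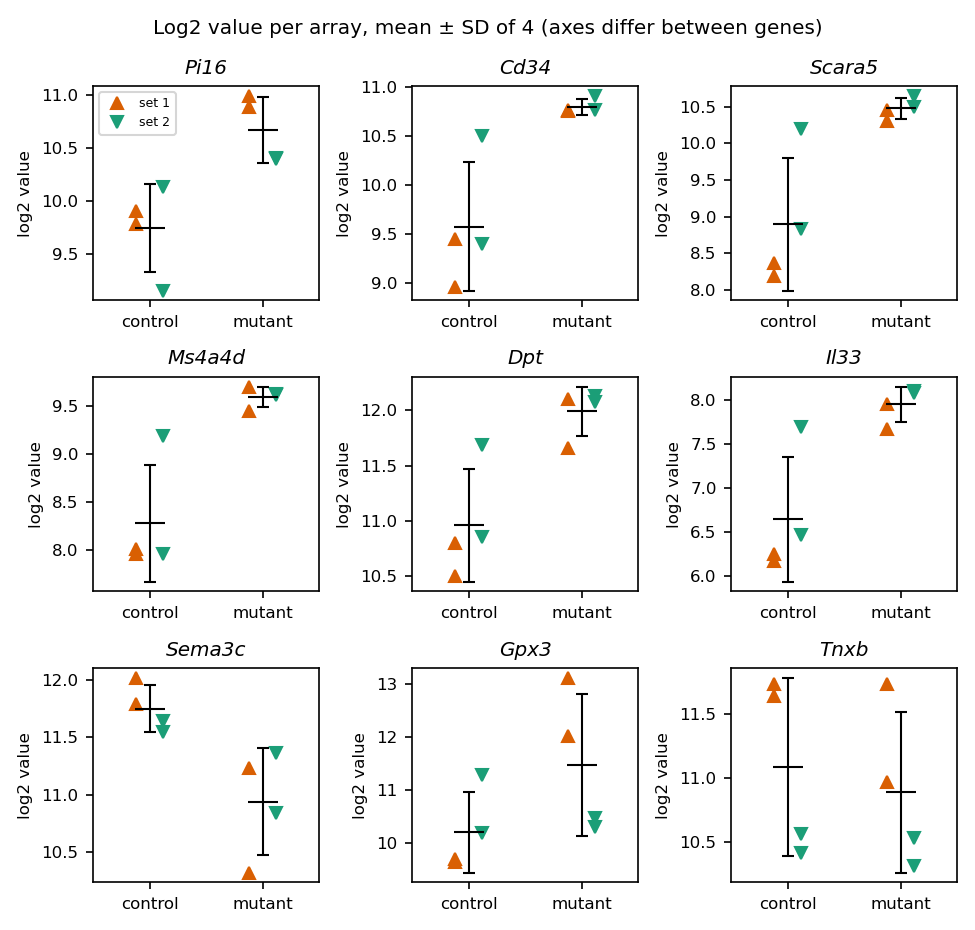
Log2 value of 9 adventitial fibroblast genes in each array (triangles, coloured by set), with the mean and SD of 4 arrays per group in black; axes differ between genes. Mutant means are above control means in 7 panels and below them for Sema3c and Tnxb. Control 3, at 10.19 for Scara5 and 9.19 for Ms4a4d, is the upper green triangle of the controls there.

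Among the surface receptors and enzymes, 11 of 12 were higher in mutants (median 0.99), 10 of them at an unadjusted p under 0.05. Pi16, a peptidase inhibitor that names the progenitor-like state, was at 9.79, 9.91, 10.13 and 9.16 in controls 1 to 4 and at 10.99, 10.88, 10.41 and 10.40 in mutants 1 to 4. All mutants were above all controls, and the difference was 0.92 (SE 0.20, limma adjusted p = 0.384), a 1.90-fold higher value. Cd34, a sialomucin of fibroblasts, endothelium and progenitors, was at 9.45, 8.96, 10.50 and 9.40 in controls and at 10.75, 10.76, 10.76 and 10.91 in mutants. The mutants lay within a span narrower than that of the controls (SD 0.08 against 0.65), and the difference was 1.22 (SE 0.27). Scara5, a scavenger receptor that takes up ferritin, was at 8.37, 8.19, 10.19 and 8.83 in controls and at 10.31, 10.46, 10.49 and 10.65 in mutants. Here the groups were again separate, by 0.12 between control 3 and mutant 1, and the difference was 1.58 (SE 0.33), the highest of the list. Ms4a4d, a membrane protein with several spans, was at 8.01, 7.96, 9.19 and 7.96 in controls and at 9.44, 9.69, 9.62 and 9.61 in mutants. Its difference was 1.31 (SE 0.26), and control 3 was the only control above 8.01.

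The other tested genes of the same surface group differed by -0.01 to 1.33, with groups that overlapped. Dpep1, a dipeptidase, was at 7.62, 7.75, 9.74 and 8.64 in controls and at 8.80, 9.87, 10.05 and 10.20 in mutants, a difference of 1.29 (SE 0.33). Control 3 lay above mutant 1, although within each set both mutants lay above both controls. Abca8a, a membrane transporter of lipids, differed by 1.33 (SE 0.43), and there control 3 (11.17) was above mutants 1 and 3 (10.85 and 10.99). Entpd2, an ectoenzyme that splits ATP, differed by 0.75 (SE 0.25), Ackr3, a scavenging receptor of the chemokine CXCL12, by 0.68 (SE 0.27) and Fap, a serine protease of fibroblasts, by 0.47 (SE 0.17). Cd248, endosialin, was nearly level between groups at 0.08 (95% confidence interval -0.20 to 0.35). Lrp1, an endocytic receptor that smooth muscle also makes, differed by -0.01 (-0.35 to 0.33). Dpp4, a peptidase of the progenitor-like state, was at 2.92 to 2.99 on every array by its brightest probe set, near the dimmest values kept, so these arrays say little about it.

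Matrix proteins and their assembly factors were higher in 8 of 10 genes, with a median of 0.81 and 7 at an unadjusted p under 0.05. Dpt, dermatopontin, which binds decorin and helps collagen fibrils form, was at 10.80, 10.50, 11.69 and 10.86 in controls and at 11.66, 12.10, 12.13 and 12.07 in mutants. Control 3 was above mutant 1, by 0.03, and below the other mutants. The difference was 1.03 (SE 0.21), and its adjusted p of 0.375 was the lowest of the list. Fbln1, fibulin 1, an elastic fibre and basement membrane protein, was at 6.34, 5.73, 7.99 and 6.30 in controls and at 7.95, 8.27, 7.80 and 7.93 in mutants, a difference of 1.40 (SE 0.44). Control 3 was above 3 of the 4 mutants there. Fbln2, a relative of Fbln1, differed less in set 1 (0.36) than in set 2 (0.88), with 0.62 over both (SE 0.23). Svep1, a large adhesion protein of the matrix, had the widest spread among the controls (5.55 to 8.46) and differed by 1.26 (SE 0.50). Clec3b, tetranectin, which binds plasminogen, differed by 1.22 (SE 0.41), and Efemp1, fibulin 3, by 0.93 (SE 0.31).

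Genes of collagen assembly had values of both signs. Pcolce and Pcolce2 both encode enhancers of the protease that trims procollagens. Pcolce was at 11.32, 11.05, 12.19 and 11.42 in controls and at 12.13, 11.70, 12.61 and 12.32 in mutants, a difference of 0.69 (SE 0.19), and its other probe set gave 0.76. Pcolce2 was at 12.03, 11.50, 11.45 and 10.70 in controls and at 11.65, 10.77, 11.30 and 11.79 in mutants. Its groups overlapped widely, with -0.04 (SE 0.33) over both sets, -0.56 in set 1 and 0.47 in set 2. The difference between the paralogs was not tested. Col14a1, a collagen on the surface of fibrils, differed by 0.44 (SE 0.20), and by 0.26 without control 4. Tnxb, tenascin X, was at 11.64, 11.74, 10.56 and 10.41 in controls and at 11.74, 10.97, 10.31 and 10.53 in mutants. All arrays of set 2 lay below all of set 1. The set 2 minus set 1 difference was -1.07 (limma adjusted p = 0.00649), while mutants differed from controls by -0.20 (SE 0.17). That value was -0.02 without mutant 2 and -0.33 without mutant 1.

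Secreted signals held the highest difference within a set (Gpx3) and the lowest over both sets (Sema3c), with 5 of 7 higher and a median of 1.13. Il33, a nuclear cytokine released from damaged cells, was at 6.26, 6.17, 7.69 and 6.47 in controls and at 7.67, 7.96, 8.08 and 8.10 in mutants. Mutant 1 lay 0.02 below control 3, all other mutants lay above every control, and the difference was 1.31 (SE 0.27). Serpinf1, pigment epithelium-derived factor, which restrains vessel growth, was at 10.10, 9.67, 11.38 and 10.12 in controls and at 11.43, 11.19, 11.75 and 11.61 in mutants, a difference of 1.18 (SE 0.28). Its other probe set gave 1.41 (SE 0.41). Sema3c, a secreted semaphorin that guides migrating cells, went the other way. It was at 11.79, 12.02, 11.64 and 11.55 in controls and at 11.23, 10.32, 10.84 and 11.36 in mutants, all mutants below all controls. The difference was -0.81 (SE 0.24, limma adjusted p = 0.451), and -1.14 (SE 0.45) in its other probe set. There the groups overlapped, with controls at 8.64, 8.58, 6.92 and 6.48 and mutants at 7.51, 5.86, 6.15 and 6.54.

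The 3 Wnt inhibitors of the secreted frizzled-related family had values of both signs. Sfrp1 was at 9.14, 7.99, 8.25 and 7.59 in controls and at 10.28, 9.63, 8.73 and 8.84 in mutants. Within each set both mutants were above both controls, and the difference was 1.13 (SE 0.30). Its 4 other probe sets gave 0.34 to 0.99. Sfrp4 differed by 0.60 (SE 0.39), with groups that overlapped in both sets, and by 0.26 without control 2 or 0.31 without mutant 1. Sfrp2 was at 11.24, 10.70, 10.81 and 10.09 in controls and at 10.73, 9.15, 10.82 and 10.59 in mutants. The low value of mutant 2 set its difference of -0.39 (SE 0.43), which was 0.06 without that array, -0.15 without control 1 and -0.66 without control 4. Differences between the 3 genes were not tested.

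The differences of both transcription factors of the list came mostly from set 1, and Tcf21 was dim. Tcf21, a basic helix-loop-helix factor of fibroblast precursors, was at 3.01, 3.28, 2.83 and 3.06 in controls and at 4.01, 4.03, 3.07 and 3.06 in mutants. Only the mutants of set 1 stood above the rest, and the difference was 0.50 (SE 0.16). Ebf2, which marks precursors of brown fat as well as adventitial fibroblasts, was at 5.25, 5.54, 6.39 and 5.52 in controls and at 5.70, 7.61, 5.89 and 6.12 in mutants. Mutant 2 was the highest, and the difference of 0.66 (SE 0.47) was 0.15 without it. Its other 2 probe sets gave 1.34 (SE 0.58) and 1.14 (SE 0.66), and mutant 2 was the highest array in both. Of the 17 further probe sets of these genes that were tested, 17 had the sign of the brightest one. They ran from -1.14 for Sema3c to 1.71 for Dpep1, and the smallest in size were Col14a1 (0.045) and Fbln2 (0.0525). A Cd55 probe set among them was at 2.58, 2.52, 3.20 and 2.85 in controls, with a mean below the lowest mean kept (2.97). It was kept only through its mutant values (3.26 to 4.62), so its sign is no support.

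**Figure D2:**
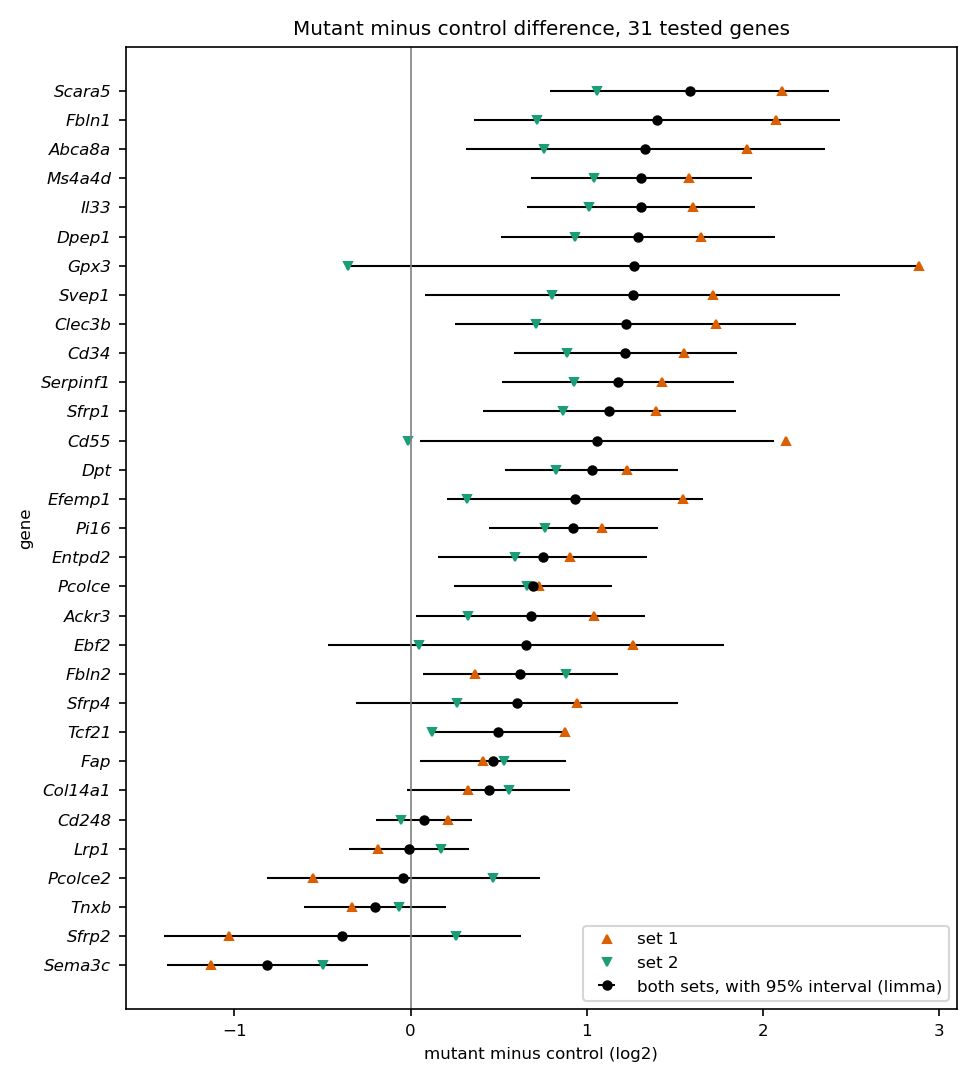
Mutant minus control difference (log2) of the 31 tested genes, with limma's 95% interval (black), and the difference within set 1 (upward triangles) and set 2 (downward triangles). Set 1 lies farther from 0 than set 2 for 28 genes, and Gpx3 and Cd55 show the widest gap between sets.

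The 2 sets had the same sign for most genes, 23 higher and 2 lower in both, and opposite signs for 6. The median over the list was 1.23 in set 1 and 0.595 in set 2, and 28 of 31 differences were larger in size in set 1. In set 1 both mutants lay above both controls for 23 genes (74.2%), where 15.3% of all probe sets did, and below them for 1, Sema3c, where 26.8% did. In set 2 the counts were 14 (45.2%) above, where 14.3% of all probe sets lay, and again only Sema3c below, where 16.8% lay. The mutants were above in both sets for 11 genes, where 4.11% of all probe sets were. They were above in set 1 only for 12 (9.56% of all probe sets) and in set 2 only for 3, Lrp1, Col14a1 and Fbln2 (10.2%). A genotype by set interaction passed for 0 of the 31 at an adjusted p of 0.05, where 0.0518% of all probe sets passed. At an unadjusted p under 0.05 there were 4 (12.9%), Cd55, Gpx3, Tcf21 and Efemp1, where 5.12% of all probe sets were.

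Gpx3, an extracellular glutathione peroxidase that fat also makes, had the largest gap between sets. It was at 9.65, 9.70, 11.28 and 10.20 in controls and at 12.01, 13.11, 10.30 and 10.47 in mutants, so its difference was 2.89 in set 1 but -0.35 in set 2 (adjusted p of the interaction = 0.525). Over both sets it was 1.26 (SE 0.68), and 0.72 without mutant 2. The fat markers had medians of 2.75 in set 1 and -0.40 in set 2, and their part in the value of Gpx3 was not tested. Cd55, an inhibitor of complement on cell surfaces, was at 3.54, 3.93, 4.16 and 3.94 in controls and at 5.78, 5.95, 4.10 and 3.97 in mutants. The mutants of set 1 stood apart (2.13) and those of set 2 did not (-0.01). Its other 2 probe sets gave 1.66 and 1.60 in set 1 and 0.255 and 0.28 in set 2. The last of these was dim in controls (2.52 to 3.20) and was kept only through its mutant values. Efemp1 had 1.55 in set 1 and 0.32 in set 2. As for the sets themselves, 4 of the 31 genes (12.9%) differed between them at an adjusted p of 0.05, where 21.4% of all probe sets did. Cd248 and Dpep1 were higher in set 2, and Tnxb and Tcf21 lower.

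**Figure D3:**
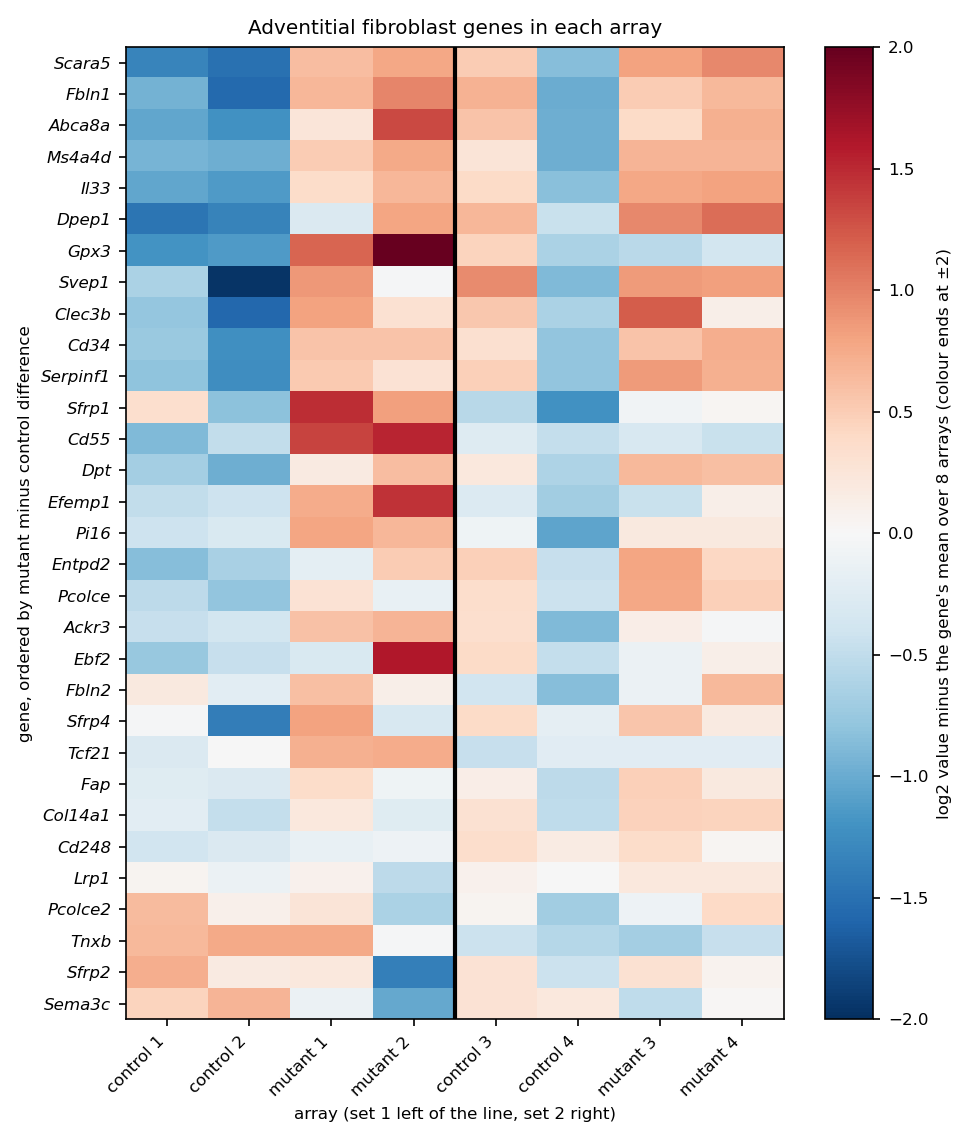
Each row is 1 of the 31 tested genes, each column 1 array, and colour is the log2 value minus the gene's mean over the 8 arrays, with colours ending at 2 either way. Control 3 is red for most of the upper rows, unlike controls 1, 2 and 4, and Sema3c at the foot runs the other way.

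Control 3 was unlike the other controls across most of the list. It was above the other 3 controls for 24 of 31 genes and above control 4, of its own set, for 30, with Tcf21 the exception. The median gap between controls 3 and 4 was 0.83, while controls 2 and 1 differed by a median of -0.17. Control 3 reached or passed the lower mutant of its set for 16 genes, and it passed both mutants for 8. The mean log2 value of the 31 genes was 8.74, 8.51, 9.42 and 8.59 in controls 1 to 4 and 9.67, 9.61, 9.50 and 9.51 in mutants 1 to 4. The mutants thus had a narrow range, and every mutant lay above control 3 in this mean. Spread within a group was smaller in mutants for 22 genes, with a median SD of 0.41 against 0.55.

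Whether any gene of the list passed turned on control 3. Without it, 5 genes passed an adjusted p of 0.05 and rose: Ms4a4d (1.61, limma adjusted p = 0.0129), Scara5 (1.96, 0.0150), Pi16 (1.15, 0.0241), Il33 (1.61, 0.0282) and Ackr3 (1.00, 0.0426). In that fit 11 probe sets passed in all, 0.0407% of those tested. Groups did not overlap for 19 genes higher in mutants, where 3.37% of probe sets were so. With any other single array left out, 0 genes of the list passed an adjusted p of 0.05. Removing the control nearest to the mutants enlarges the differences by construction, and no label sets that array apart. With control 3 and mutant 2 both left out, chosen after seeing the data, 8 genes passed, the 5 above and Dpep1, Abca8a and Serpinf1, among 41 probe sets.

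**Figure D4:**
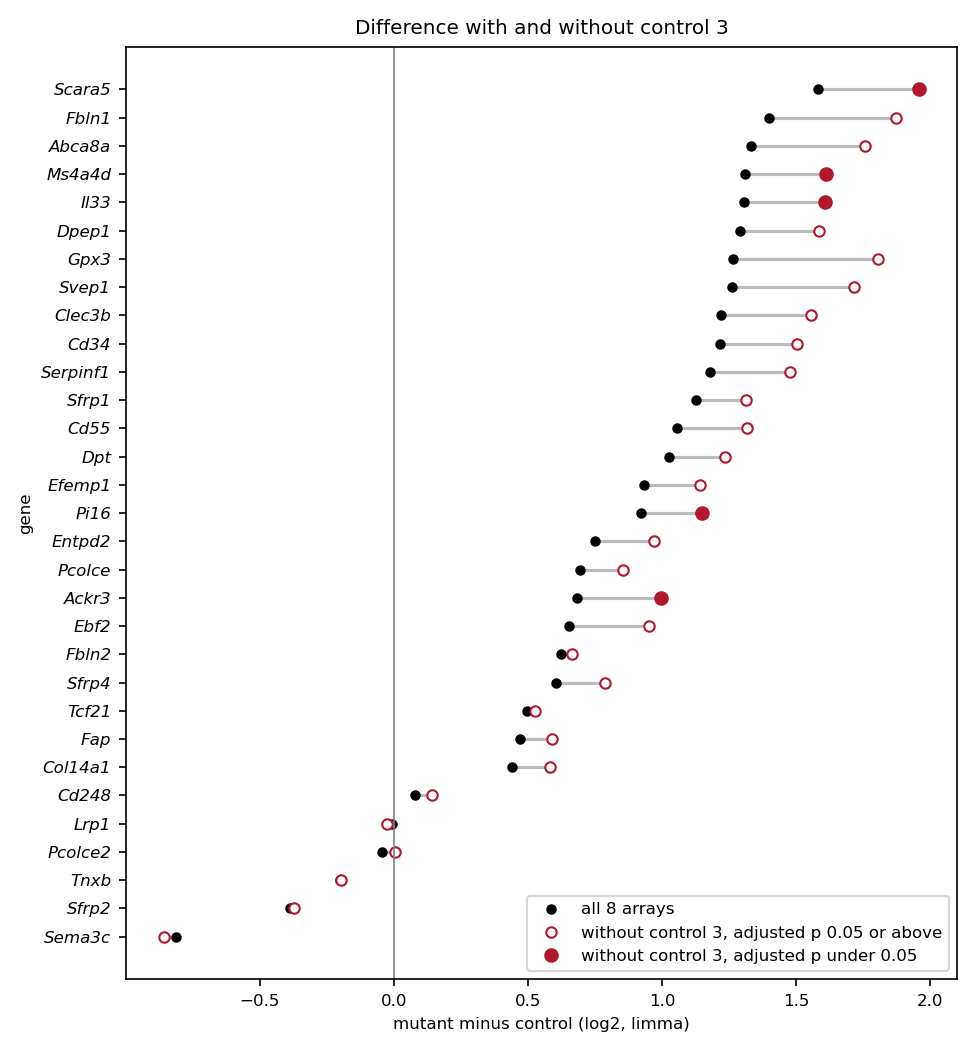
Mutant minus control difference (log2) of each of the 31 genes over all 8 arrays (black) and without control 3 (red outlines, filled where the adjusted p was under 0.05); where the points coincide only the red one shows. Most upper points move right, and 5 genes are filled.

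Markers of other cells of the vessel wall also had different values in the 2 groups. In the endothelial list the mean log2 values were 7.68, 8.00, 7.58 and 7.18 in controls 1 to 4. Control 3 was thus below both controls of set 1 but above control 4, of its own set. In the macrophage and leukocyte list they were 5.56, 5.20, 6.18 and 5.58, with control 3 the highest. Endothelial markers were higher in 15 of 15 genes tested (median 0.96, 1.46 in set 1 and 0.52 in set 2). Their summed linear signal was 4132 to 7754 in controls and 6559.8 to 19006 in mutants, and Pecam1, an adhesion molecule of endothelium, differed by 0.70 (SE 0.21). Ptprb, an endothelial phosphatase, had the smallest p of that list (0.99, SE 0.13). Macrophage and leukocyte markers were higher in 14 of 14 (median 1.17, 1.98 in set 1 and 0.41 in set 2), with summed signals of 1113 to 2359.7 in controls and 2401 to 4485 in mutants. Their defining marker Ptprc was at 3.65 to 4.16 in controls, at 6.99 and 7.10 in mutants 1 and 2 and at 3.77 and 4.51 in mutants 3 and 4. Cd163 had the smallest p of the macrophage and leukocyte list (1.015, SE 0.23), with 1.225 in set 1 and 0.805 in set 2. Smooth muscle markers were lower in 12 of 12 (median -0.28), with summed signals of 217559 to 235802 in controls and 187732 to 206777 in mutants. Ppp1r14a, an inhibitor of myosin phosphatase, had the smallest p there (-0.59, SE 0.06). Tagln, the gene named in the Cre allele, was among the 12 (-0.29, SE 0.05). By the labels only mutants carry that allele, and its part in the value of Tagln was not tested. Of these genes 0 passed an adjusted p of 0.05. The part of each of these lists in the fibroblast values was not tested.

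Fat transcripts were highest in mutants 1 and 2 and nerve transcripts in mutant 2, while striated muscle transcripts were higher in set 2 than in set 1. Fat markers were higher in 7 of 7 tested, with summed signals of 16742 to 28937 in controls and 18512 to 89762 in mutants. Adipoq, the fat hormone adiponectin, was at 11.90 and 13.63 in mutants 1 and 2 and at 9.66 to 10.64 in the other 6 arrays. Schwann cell markers were higher in 5 of 5, and the sums were 61.6 to 170.0 in controls and 153 to 8682 in mutants, the highest in mutant 2. Of these, Cdh19 had a control mean of 2.845, below the lowest mean kept (2.97). It was kept only through its mutant values (9.25 in mutant 2), so its sign is no support. Sox10 was at 3.79 to 3.82 on every array but mutant 2 (5.20). Striated muscle markers were higher in 2 of 6 tested, with sums of 149 to 5679.7 in controls and 155 to 3379 in mutants. Mean log2 values of that list were 3.89 to 5.75 in set 1 and 6.12 to 7.86 in set 2. Ckm was dim on most arrays (2.21 to 5.83). Myh6, heart muscle myosin, named after its values were seen, was at 4.41 to 7.66 in set 1. In set 2 it was at 9.77 to 11.54, the highest in control 3. Lymphatic markers were higher in 4 of 4 (median 0.55), with sums of 156 to 589.6 in controls and 284 to 627 in mutants, and Lyve1 differed by 0.54 (SE 0.21). Mesothelial markers, Msln among them, were below the cut-off in all 6 genes, and of the lymphocyte markers only Ms4a1 was above it (0.11), with Cd3e at 1.78 to 1.83. Without mutant 2, which held most of the nerve signal, the median of the fibroblast list was 0.77. In that fit 20 genes of the list were higher at an unadjusted p under 0.05, where 1219 of all 27023 probe sets were. The part of these transcripts in the fibroblast values was not tested.

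**Figure D5:**
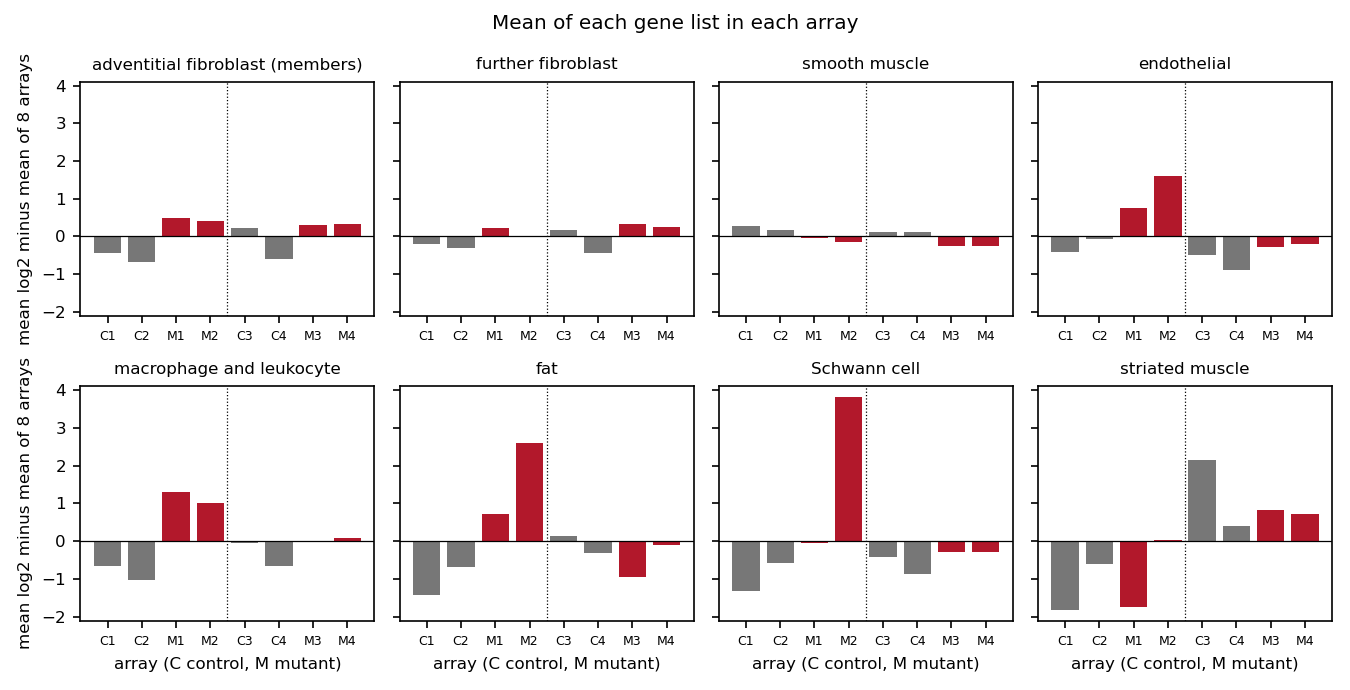
Mean log2 value of each gene list in each array minus the list's mean over the 8 arrays, controls in grey and mutants in red, set 1 left of the dotted line. The adventitial list is above 0 in the 4 mutants and in control 3, while fat and Schwann cell lists peak in mutant 2 and the striated muscle list in control 3.

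A further list of 24 fibroblast genes, none of them among the 34, behaved less uniformly. Of 23 tested, 15 were higher and 8 lower, with a median of 0.32. At an unadjusted p under 0.05 there were 12 higher and 2 lower, where 4.5% and 5.05% of all probe sets were. Pdgfra, the receptor that defines fibroblasts, was at 8.78, 8.54, 9.90 and 8.54 in controls and at 10.04, 9.41, 10.08 and 10.12 in mutants. It had the same order of controls, with control 3 highest, and differed by 0.97 (SE 0.29). Gas1, a growth arrest gene, had the smallest p (0.32, SE 0.07, adjusted p = 0.384), and Dcn, decorin, the next (1.01, SE 0.24). The 2 lower at an unadjusted p under 0.05 were Mfap4 (-0.62, SE 0.24) and Mfap5 (-0.61, SE 0.26), also named after their values were seen. The main fibrillar collagens, which smooth muscle makes too, had differences of 0.17 for Col1a1 (SE 0.16), -0.02 for Col1a2 (SE 0.10) and 0.05 for Col3a1 (SE 0.06), named after their values were seen. Col1a1 differed by 0.42 in set 2 and -0.07 in set 1. At an adjusted p of 0.05, 0 of the 23 passed. The difference between the lists was not tested.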

How the data were processed

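Affymetrix mouse arrays of aorta RNA were read from the deposited table of log2 values per probe set (0.9 to 15.82). GCOS is named in the submitters' processing notes; the sources used here do not state background correction, normalization or summarization. Values were used as deposited. Of 45037 probe sets, 34945 carried 1 gene symbol in the platform annotation, 932 several and 9160 none. The dimmest 40%, by their mean over 8 arrays, were dropped, which kept 27023 (lowest mean 2.97). Arrays have no read depth, and their number limits the precision.

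Groups were compared with limma (version 3.58.1, R 4.3.3), the model holding genotype, title set and a mean-variance trend, and two-sided p-values were adjusted by Benjamini-Hochberg over all probe sets tested. Differences are log2 values, mutants minus controls, with limma's SE. Each set holds both groups, so the set served as a block; replicate numbers follow sample order and pair nothing. The fit was tested on simulated data. Members, lists and motifs were chosen with earlier results of these data known. All members are named. Of other lists, the defining marker is named where it had a probe set, with the gene of smallest p for some lists and a few other genes. The unit was found to be log2, as the design assumed. Alternatives were other filters, normalizations, variance models and subsets of arrays. Array control probe sets for RNA quality were not analysed here. Figures were drawn with Python 3.11.15.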

Additional observations from a re-analysis of the deposited data

Results flagged for a closer look

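In 6 of 64 groups of 4 arrays, a group being the controls or the mutants for 1 gene, the highest or lowest array lay far from the other 3, judged by Dixon's test on the gap to the nearest array. Chance alone flags about 5% of such groups. Control 3 was the high array for Ms4a4d (9.19, the next control at 8.01) and for Abca8a (11.17, the next at 9.62). Mutant 2 was the low array for Svep1 (7.49, the next at 8.34) and for Sfrp2 (9.15, the next at 10.59). Mutant 1 was low for Dpt (11.66, the next at 12.07), and mutant 4 was high for Cd34 (10.91, the next at 10.76).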

How the results depend on the processing

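The median difference of the list, 0.92, kept its sign in all settings tried. It moved beyond the spread between arrays (SD 0.318) in set 2 alone (0.595), and was only just within it in set 1 alone (1.23). It was 0.761 to 1.141 with each array left out. Without the set as a replicate block, 19 genes of the list had an unadjusted p under 0.05, against 22 with it (4.73% and 9.55% of all probe sets), and 0 passed either way. In set 2 alone there were 2 (5.5%), and 13 to 23 with each array left out (5.28% to 10.9%), the fewest without control 2. Genes passing over all probe sets were 0 to 5 with each array left out, the most without control 3, and 8 without control 3 and mutant 2, a choice made after the data were seen. Probe sets passing in the whole table were 10 with array weights, 41 without control 3 and mutant 2, and 0 to 11 with each array left out. Genes whose groups did not overlap numbered 5 over all arrays (3.0% of all probe sets), 24 in set 1 alone (42.1%), 15 in set 2 alone (31.1%), 23 without control 3 and mutant 2 (7.97%), and 5 to 20 with each array left out (4.04% to 7.18%); fewer arrays give less overlap by construction. The interaction with set passed for 0 to 4 genes with each array left out; the 4, without mutant 1, were Cd55, Lrp1, Sfrp2 and Gpx3, where 10.2% of all probe sets passed. Genes that differed between sets were 4 (21.4% of all probe sets), 2 with no filter (10.3%), 2 without the variance trend (21.3%), 6 with array weights (37.0%), and 1 to 3 with each array left out (12.5% to 27.8%). Some signs turned. In set 2 alone these were Cd248 (-0.055), Cd55 (-0.015), Gpx3 (-0.355), Lrp1 (0.17), Pcolce2 (0.47) and Sfrp2 (0.255). With array weights they were Lrp1 (0.13) and Pcolce2 (0.22), and with quantile normalization Lrp1 (0.011). Without control 3 and mutant 2 they were Lrp1 (0.165), Pcolce2 (0.365), Sfrp2 (0.188) and Tnxb (0.03). With each array left out, Lrp1 ran from -0.092 to 0.148, Pcolce2 from -0.295 to 0.236 and Sfrp2 from -0.66 to 0.057. The cause was not tested. Values near the dim end, such as those of Tcf21 and Dpp4, are limited by low signal.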
